A study of Mus musculus with 49 samples.

Results

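The complement and coagulation systems are 2 cascades of plasma proteins, most of which are made by hepatocytes, and this account follows their transcripts in mouse liver after an acetaminophen overdose. The gene set has 37 members, chosen by name as components, activators and inhibitors of the cascades and not by their values in these arrays. A member was measured through the probe sets whose annotation gives its symbol and no other. Of the 37 genes, 35 had such a probe set (46 probe sets in all), and C3 and C4b had none and are given no value. The gene level tests cover 18194 genes at 5 times and 5976 genes in all 10 groups.

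The RNA came from livers of male C57BL6/N mice that had received acetaminophen once, at 300 mg/kg in phosphate-buffered saline into the peritoneum, and was read on Affymetrix expression arrays. Acetaminophen (paracetamol) in overdose is turned into a reactive product in the hepatocytes around the central vein, which are injured and later replaced. Livers were taken at 1, 6 and 12 h and at 1, 2, 4, 6, 8 and 16 d. Beside them stood a group labelled control, for which no dose is given. There were 4 arrays at 6 h and 5 in each of the other groups. Treated mice had no food in the night before dosing and free access to it later, and the sources used here do not say whether control mice were starved or given the vehicle. The 1 h group, which stands as the baseline of many comparisons below, had itself been starved and dosed. Arrays of a group carry replicate numbers in the labels without a statement that they come from separate mice, so p-values measure the spread between these arrays only.

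Complement is set off by C1q bound to antibodies or dying cells, by mannose-binding lectins bound to sugars, or by slow spontaneous activation. All 3 routes meet at C3 and end in a pore made of C5 to C9. Coagulation starts when blood meets tissue factor, which with factor VII activates factor X, and prothrombin is then cut to thrombin and fibrinogen to fibrin. Antithrombin, heparin cofactor II and protein C restrain the cascade, and plasmin, made from plasminogen, dissolves the clot. Loss of liver-made clotting factors is a recognised feature of severe acetaminophen injury.

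The values are deposited log2 expression values, in which a difference of 1 is 2-fold. Values on all 10 groups existed for 24 of the 35 measured genes. The other 11 (C6, C8a, C8b, C8g, C1qc, F9, F11, Fga, Fgb, Plaur and Klkb1) had values at 1 h, 12 h, 1 d, 2 d and 16 d only, because 24 of the 49 arrays held values for only part of the probe sets. Array means over the shared probe sets lay between 6.03 and 6.33. The spread of values within an array was narrower on 3 arrays (1 h replicate 3, 16 d replicate 4 and control replicate 3; SD at most 2.26) than on the other 46 (SD at least 2.40). Control replicate 2 and 8 d replicate 2 also stood apart for some members. Plg read 11.37 on 8 d replicate 2 and 11.51 on control replicate 2, against at least 12.47 on every other array. C1qa read 6.92 and 6.94 on the same 2 arrays. The highest value in the table was 14.41, and values of Fgb and Fgg came within 1 log2 unit of it, so that differences of these genes may be understated. In whole liver, fewer cells of a type and less RNA per cell cannot be told apart.

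Across the 5 times with complete arrays, 33 of the 35 genes differed between times (limma's moderated F test, Benjamini-Hochberg adjusted over all genes at 0.05), where 38.8% of all genes did. The exceptions were Masp1 and Plau. Most of the members that moved were lower at 12 h and 1 d. At 12 h against 1 h, 22 of 35 fell and 4 rose, where 10.3% of all genes were called lower and 8.29% higher. At 1 d against 1 h, 22 fell and 7 rose, where 11.7% and 11.6% of all genes did. At 2 d against 1 h, 13 fell and 7 rose, with 13.3% and 14.8% of all genes. These comparisons share the 1 h arrays. The median log2 difference of the 35 genes from 1 h was -0.33 at 12 h, -0.34 at 1 d and -0.21 at 2 d, beside medians over all genes of -0.08, -0.07 and -0.08. The 2 d and 1 d livers were also compared directly: 9 of 35 genes were higher at 2 d and none was lower, where 6.39% and 2.09% of all genes were called. At 16 d no gene of the set differed from 1 h in limma's test (9 of 35 at an unadjusted p under 0.05), where 2.78% of all genes did. Array weights, trend with robust estimation, quantile normalization and a fit to those 2 groups alone called 8, 3, 2 and 2 of the 35.

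**Figure D1:**
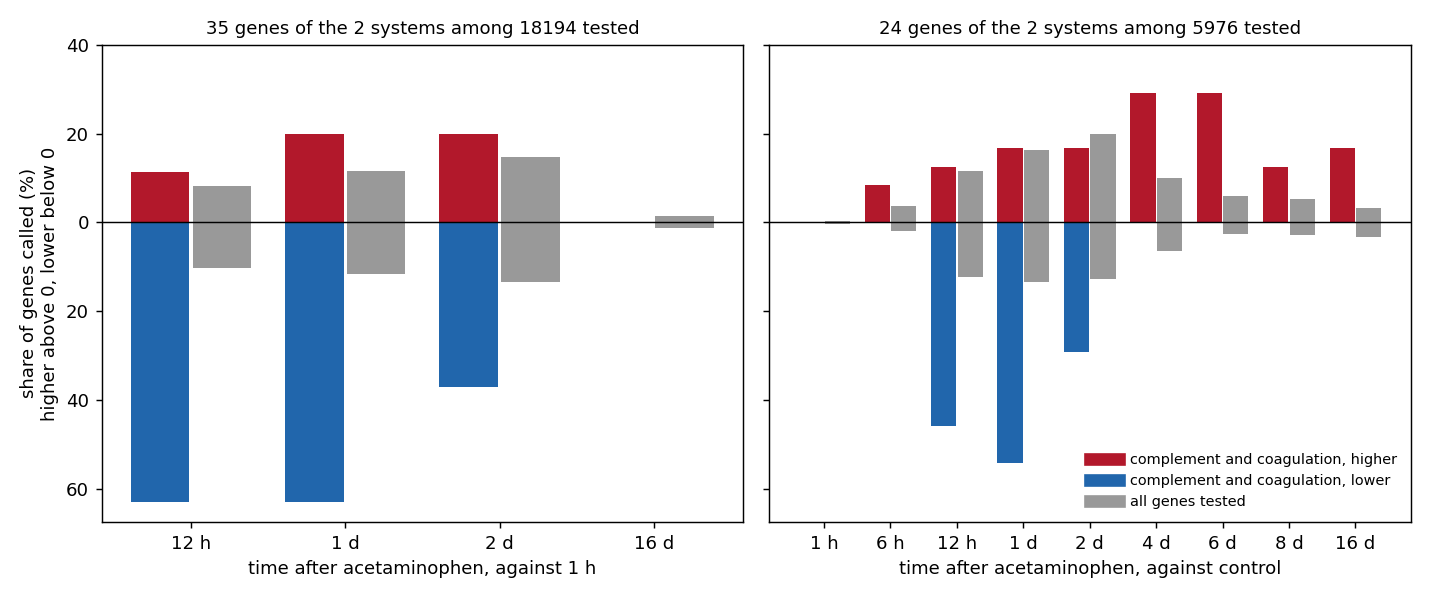
Share of genes called higher (bars above 0) or lower (bars below 0) at an adjusted p under 0.05, in percent, against 1 h for 35 genes (left) and against control for 24 (right). Coloured bars are complement and coagulation genes and grey bars are all genes tested. The blue bars are 22 of 35 genes at 12 h and at 1 d, and at 16 d neither coloured bar is present on the left.

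Against control, the 24 genes with values gave a like picture and extended it in time. No gene of the 24 differed at 1 h in limma's test (3 at an unadjusted p under 0.05), where 0.636% of all genes did. At 6 h C1qa and C1qb alone were called, both higher, where 5.67% of all genes were called, and none was called with a replicate block, under quantile normalization or without the 3 narrow arrays. At 12 h 11 genes were lower and 3 higher, beside 12.2% and 11.5% of all genes. At 1 d 13 were lower and 4 higher, beside 13.4% and 16.2%. At 2 d 7 were lower and 4 higher, beside 12.7% and 19.9%. From 4 d on every called gene of the 24 was higher: 7 at 4 d (9.99% of all genes), 7 at 6 d (5.89%), 3 at 8 d (5.19%) and 4 at 16 d (3.31%). At those times 6.54%, 2.64%, 2.81% and 3.35% of all genes were called lower. The counts at 6 h, 8 d and 16 d moved most when single arrays were left out, between 0 and 2, between 2 and 6 (6 without 8 d replicate 2) and between 2 and 5. Ribosomal centring left 1 gene called at 8 d, leaving out the narrow arrays 1 at 16 d, and a fit to the compared groups alone 1 at 8 d and none at 16 d.

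These splits rest on the deposited scale. When every array was centred on its ribosomal protein genes instead, the median difference of all genes from 1 h moved to -0.315 at 12 h, -0.469 at 1 d and -0.42 at 2 d. On that scale 26, 25 and 23 of the 35 genes were lower and 2, 2 and 4 higher at 12 h, 1 d and 2 d against 1 h. Against control, 12, 18 and 14 of the 24 were lower at those times and 3, 3 and 2 higher, beside all-gene medians of -0.15, -0.284 and -0.264. At each of these times this centring lowered the differences of all genes by the same amount, so it could not test the direction of the falls or of the rises. Most of the small rises of fibrinogen from 1 h at 1 d and 2 d became small negative differences under it, as given with those genes. Their direction therefore depends on the scale.

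**Figure D2:**
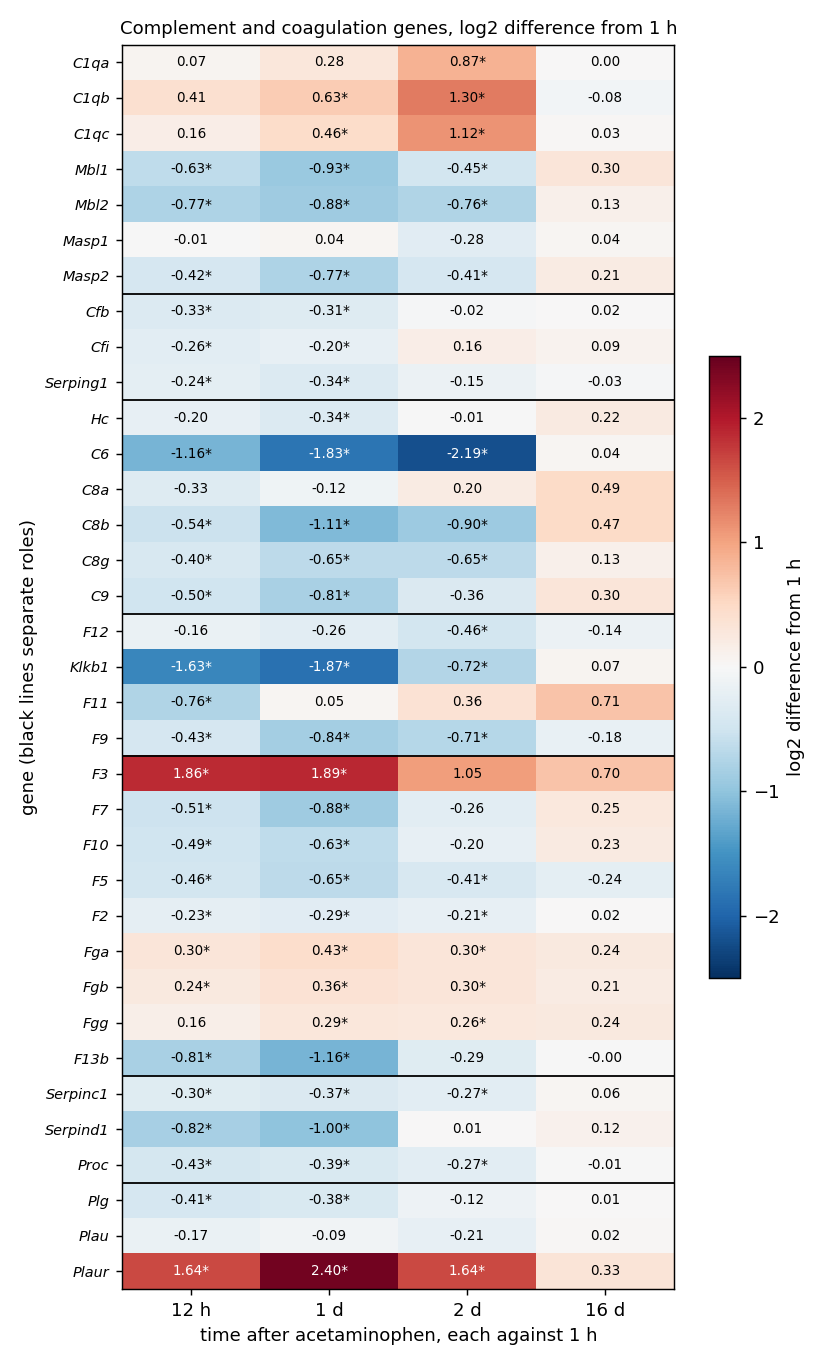
Log2 difference of each of the 35 measured genes from 1 h at 12 h, 1 d, 2 d and 16 d after acetaminophen, in rows grouped by role; red is higher, blue is lower and a star marks an adjusted p under 0.05. C6 is lowest at 2 d (-2.19), Klkb1 at 1 d (-1.87), and Plaur is highest at 1 d (2.40); the fibrinogen rows (Fga, Fgb, Fgg) are positive on this scale and not after ribosomal centring at 2 d.

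Among the recognition molecules, the 3 chains of C1q rose while the lectins and their protease Masp2 fell. C1q is the recognition unit of the classical pathway and is made mainly by macrophages and not by hepatocytes. C1qb read 8.78, 8.42, 8.72, 9.05 and 9.41 at 1 h, 9.60, 9.73, 9.29, 9.77 and 9.14 at 1 d, and 10.12, 10.54, 9.88, 10.33 and 10.03 at 2 d. Every 2 d array lay above every 1 h array and every 1 d array. At 2 d against 1 h the difference was 1.30 ± 0.21 for C1qb (SE, adjusted p = 4.13e-05), 1.12 ± 0.15 for C1qc (3.76e-06) and 0.87 ± 0.15 for C1qa (0.000128, limma). At 2 d all 3 were also above 1 d, by 0.67 ± 0.21 for C1qb, 0.66 ± 0.15 for C1qc and 0.58 ± 0.15 for C1qa. That call was lost for C1qb without 1 d replicate 1, 3 or 5 or 2 d replicate 1, 2, 4 or 5 (adjusted p of up to 0.116) and for C1qa without 1 d replicate 5 (0.053).

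On its brightest probe set, calls of C1qb began earlier against control than against 1 h, where its 12 h difference of 0.41 ± 0.21 was not called. The baselines differed, with a 1 h mean of 8.88 and the mostly lower control readings given below. The 12 h arrays are the same in both comparisons, so the earlier calls do not date the rise. A dimmer C1qb probe set was called at 12 h against 1 h (0.62 ± 0.20, adjusted p = 0.0367 over all probe sets, limma). Another was not (0.41 ± 0.19, adjusted p = 0.156), so this contrast of baselines depends on the probe set. Against control, C1qb was higher by 0.90 ± 0.22 at 12 h, 1.12 ± 0.22 at 1 d, 1.79 ± 0.22 at 2 d, 1.38 ± 0.22 at 4 d and 1.26 ± 0.22 at 6 d, with adjusted p between 1.33e-08 and 0.00223 (limma). C1qa followed with 1.55 ± 0.26 at 2 d, 1.25 ± 0.26 at 4 d and 1.39 ± 0.26 at 6 d. C1qb read 9.53, 9.92, 9.55, 9.95 and 9.31 at 6 d, against 8.17, 8.21, 8.16, 8.50 and 8.89 in control, and the groups did not overlap. The 6 h call of C1qb (0.76 ± 0.24, adjusted p = 0.0463) was lost without 6 h replicate 2 or 5 and without control replicate 1, 2, 3 or 4, with an adjusted p of up to 0.286 over all alternatives. That of C1qa (0.90 ± 0.27, adjusted p = 0.0397) was lost without 6 h replicate 2 or 5 and without control replicate 1, 2 or 3 (up to 0.201). With a replicate block the 6 h values were 0.74 for C1qb and 0.89 for C1qa (adjusted p = 0.0639 and 0.0536). At 8 d neither C1qa nor C1qb was called, and both were called without 8 d replicate 2.

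Markers of macrophages moved with C1q. All 13 monocyte and macrophage markers listed were measured. Against 1 h, 3 were higher at 12 h, 5 at 1 d and 11 at 2 d, with none lower. These were 23.1%, 38.5% and 84.6% of the list, where 8.29%, 11.6% and 14.8% of all genes were called higher. The summed linear level of the 13 ranged from 3000 to 4010 over the 1 h arrays, 3610 to 7830 at 12 h, 4460 to 7780 at 1 d and 8420 to 12400 at 2 d. Cd68, a lysosomal protein of phagocytes, was higher by 3.09 ± 0.22 at 2 d and Csf1r, the receptor of the macrophage growth factor, by 0.49 ± 0.15. Of 8 Kupffer cell markers, 4 were higher at 2 d and none was lower. Clec4f, a lectin of resident Kupffer cells, was lower at 1 d by 0.67 on the log2 scale (-0.67 ± 0.16) and differed from 1 h by 0.01 ± 0.16 at 2 d, and the summed level of the 8 ranged from 3480 to 4410 at 2 d, against 1990 to 3240 at 1 h. The deposited values carry no detection calls for these markers. The part of macrophages in the result for C1q was not tested.

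The mannose-binding lectins, which detect microbial and damaged-cell sugars, fell at the same times as most of the set. Mbl1 read 10.43, 10.62, 10.48, 10.48 and 10.75 at 1 h, 10.10, 9.61, 9.75, 9.97 and 10.17 at 12 h, 8.98, 9.67, 9.53, 9.89 and 10.03 at 1 d and 10.31, 9.51, 10.09, 10.42 and 10.16 at 2 d. No array at 12 h, 1 d or 2 d reached the lowest 1 h array. The differences were -0.63 ± 0.17 at 12 h, -0.93 ± 0.17 at 1 d and -0.45 ± 0.17 at 2 d (adjusted p = 0.01, 0.000222 and 0.0461, limma), and the call at 2 d was lost without any one of the 1 h arrays or without 2 d replicate 2, 3 or 5 (up to 0.149). Against control Mbl1 was lower by 1.05 on the log2 scale at 1 d (-1.05 ± 0.15) and was not called from 4 d on. Mbl2 fell by a like amount, -0.88 ± 0.22 at 1 d and -0.76 ± 0.22 at 2 d against 1 h, and its 4 d level was above control by 0.52 ± 0.19 (adjusted p = 0.048; up to 0.12 without 4 d replicate 3, 4 or 5 or control replicate 1, 2, 3 or 5). The 1 d arrays of Mbl2 were spread from 10.02 to 11.48.

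Masp2, the protease that lectins use to cleave C4 and C2, differed from 1 h by -0.42 ± 0.13 at 12 h, -0.77 ± 0.13 at 1 d and -0.41 ± 0.13 at 2 d. Its calls at 12 h and 2 d were lost without 12 h replicate 4 (adjusted p = 0.076) and without 2 d replicate 4 or 5 (up to 0.0727). Masp1, a related protease, gave readings that depended on the probe set. Its brightest probe set differed by -0.28 ± 0.18 at 2 d against 1 h and was not called. The next brightest, with a mean of 8.48 at 2 d and 7.53 at 1 h, differed by 0.94 ± 0.19 (adjusted p = 0.000914), and 2 dimmer ones were called higher as well (0.81 ± 0.13 and 0.73 ± 0.105), so no single direction can be given for this gene.

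Among the central components and regulators, C3 and C4b were not measured, and Cfb, Serping1 and Cfi moved little. Cfb, the protease subunit of the alternative pathway convertase, fell by 0.33 on the log2 scale at 12 h (-0.33 ± 0.11) and differed by -0.02 ± 0.11 at 2 d; the call was lost without 12 h replicate 1, 2 or 4 or 1 h replicate 3 or 4 (adjusted p of up to 0.123 over all alternatives). Serping1, the C1 inhibitor, which also blocks the contact proteases, differed by -0.24 ± 0.08 at 12 h and -0.34 ± 0.08 at 1 d, both called, the first not without 12 h replicate 2 or 3 or 1 h replicate 2, 3 or 4. Cfi, the protease that inactivates C3b and C4b, was called lower than at 1 h early and higher than control later, and neither baseline gave both calls. It read 12.46, 12.23, 12.45, 12.48 and 12.53 at 12 h, against 12.71, 12.73, 12.69, 12.63 and 12.67 at 1 h, with no overlap. That difference was -0.26 ± 0.07 (adjusted p = 0.0171), lost without 12 h replicate 2 and under quantile normalization (0.0633 and 0.0729), while against control the 12 h difference was -0.09 ± 0.07 and not called. At 2 d Cfi was above 1 d by 0.37 ± 0.07 (adjusted p = 0.00198), and it differed from 1 h by 0.16 ± 0.07, which was not called. At 4 d it read 12.80, 12.89, 12.93, 13.03 and 12.999, against 12.50, 12.36, 12.50, 12.53 and 12.72 in control, again with no overlap. Cfi was above control by 0.33 ± 0.07 at 2 d, 0.41 ± 0.07 at 4 d, 0.37 ± 0.07 at 6 d, and 0.25 ± 0.07 at both 8 d and 16 d (adjusted p from 3.17e-05 to 0.0176). The calls at 2 d and 8 d were lost after ribosomal centring (adjusted p = 0.373 and 0.0808). The 8 d call was lost without 8 d replicate 3 or control replicate 2, and the 16 d call without control replicate 2 and without the 3 narrow arrays. Both were lost in a fit to the compared groups alone (0.235 and 0.269).

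The terminal components, which build the membrane attack complex, showed the deepest fall of the set in C6 and an uneven response within C8. C6, which joins C5b to start the pore, read 10.71, 10.64, 10.74, 10.48 and 10.72 at 1 h, 9.18, 9.04, 9.78, 9.70 and 9.81 at 12 h, 9.11, 9.08, 7.94, 9.06 and 8.97 at 1 d, 9.36, 8.13, 8.19, 8.70 and 7.96 at 2 d, and 10.67, 11.13, 10.61, 10.64 and 10.45 at 16 d. Every array from 12 h to 2 d lay below every 1 h and 16 d array. The differences from 1 h were -1.16 ± 0.235 at 12 h, -1.83 ± 0.235 at 1 d and -2.19 ± 0.235 at 2 d (adjusted p = 0.00106, 3.83e-06 and 1.92e-07, limma), and 0.04 ± 0.235 at 16 d. The change between 2 d and 1 d was not called (-0.36 ± 0.235).

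C8 is made of 3 chains from 3 genes. C8b, the beta chain that binds the growing complex, read 9.80, 9.90, 9.29, 9.76 and 9.95 at 1 d, against 10.97, 10.81, 10.87, 10.71 and 10.91 at 1 h, and the groups were well apart. The difference was -1.11 ± 0.155 at 1 d and -0.90 ± 0.155 at 2 d. C8a, the alpha chain that inserts into the membrane, read 11.16, 11.78, 11.53, 12.01 and 11.75 at 1 d, against 11.85, 11.66, 11.98, 11.62 and 11.70 at 1 h, and the groups overlapped. It differed by -0.12 ± 0.15 at 1 d and 0.20 ± 0.15 at 2 d, and neither was called. C8g, the lipocalin-like gamma chain, differed by -0.65 ± 0.11 at 1 d and again at 2 d, both called. Of the other terminal genes, C9, which forms the ring of the pore, differed by -0.81 ± 0.17 at 1 d (adjusted p = 0.000851). Hc, the mouse gene of C5, differed by -0.34 ± 0.12 at 1 d (0.0404). The call of Hc was lost without 1 d replicate 1, 3, 4 or 5 and without 1 h replicate 1, 2, 3 or 5 (adjusted p of up to 0.265 over all alternatives). C9 was then above control at 6 d, 8 d and 16 d by 0.56 ± 0.16, 0.62 ± 0.16 and 0.52 ± 0.16 (adjusted p = 0.0157, 0.00728 and 0.0312). Of these, the 6 d call was lost without 6 d replicate 2 or control replicate 1 or 3, and the 16 d call without 16 d replicate 2, 3 or 4 or control replicate 1 or 3, without the 3 narrow arrays (0.165) and in a fit to the compared groups alone (0.126).

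C8b and C8a are neighbours on chromosome 4, and the set holds 7 such neighbouring pairs. For each pair the within-array difference of the 2 genes was compared between 12 h, 1 d or 2 d and 1 h with a two-sided exact permutation test over the 10 arrays (252 arrangements), with Benjamini-Hochberg adjustment over the 21 tests. These tests were added after the values had been seen. The change of C8b minus that of C8a was -0.996 at 1 d and -1.10 at 2 d (exact p = 0.00794 each, the smallest that 5 against 5 arrays can give; adjusted p = 0.0278). F11 minus Klkb1 on chromosome 8 gave 1.92 at 1 d and 1.08 at 2 d (exact p = 0.00794 and adjusted p = 0.0278 each). F7 minus F10 gave -0.25 at 1 d (exact p = 0.0159, adjusted p = 0.0417), and at 12 h and 2 d their difference did not pass (-0.03 and -0.06). In all 8 of the 21 tests passed, the others being Fgg minus Fga at 12 h and 1 d (-0.14 each) and C1qc minus C1qa at 2 d (0.25).

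The contact and intrinsic factors divided. Klkb1 encodes plasma prekallikrein, the zymogen that is activated on surfaces together with factor XII. It read 11.21, 11.26, 10.65, 11.10 and 11.06 at 1 h, 9.43, 9.68, 9.24, 9.12 and 9.65 at 12 h, 8.68, 9.78, 9.30, 8.74 and 9.43 at 1 d, 10.70, 10.04, 10.63, 10.27 and 10.00 at 2 d, and 11.27, 11.19, 11.27, 10.81 and 11.05 at 16 d. The 12 h and 1 d arrays lay below all others. Klkb1 differed from 1 h by -1.63 ± 0.19 at 12 h, -1.87 ± 0.19 at 1 d and -0.72 ± 0.19 at 2 d (adjusted p = 1.64e-06, 1.3e-07 and 0.00563, limma), and 2 d was above 1 d by 1.15 ± 0.19 (adjusted p = 0.000209).

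F11 encodes factor XI, a close relative of prekallikrein. It read 8.91, 7.83, 8.82, 8.45 and 9.13 at 12 h, against 9.70, 9.68, 8.76, 9.43 and 9.36 at 1 h, with overlap through 1 h replicate 3. The 12 h difference was -0.76 ± 0.23 (adjusted p = 0.0226), lost without 12 h replicate 2 or 4 and without 1 h replicate 1 or 2 (up to 0.0844), and F11 differed by 0.05 ± 0.23 at 1 d. F9, factor IX, whose lack causes haemophilia B, had tight groups: 10.52, 10.42, 10.31, 10.24 and 10.37 at 1 d, against 11.22, 11.27, 11.14, 11.20 and 11.23 at 1 h. No array overlapped. It differed by -0.43 ± 0.09 at 12 h, -0.84 ± 0.09 at 1 d and -0.71 ± 0.09 at 2 d. F12, factor XII, the starter of the contact pathway, was called only at 2 d among the times compared with 1 h (-0.46 ± 0.10, adjusted p = 0.00158) and only at 2 d among those compared with control (-0.38 ± 0.10, 0.00217).

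**Figure D3:**
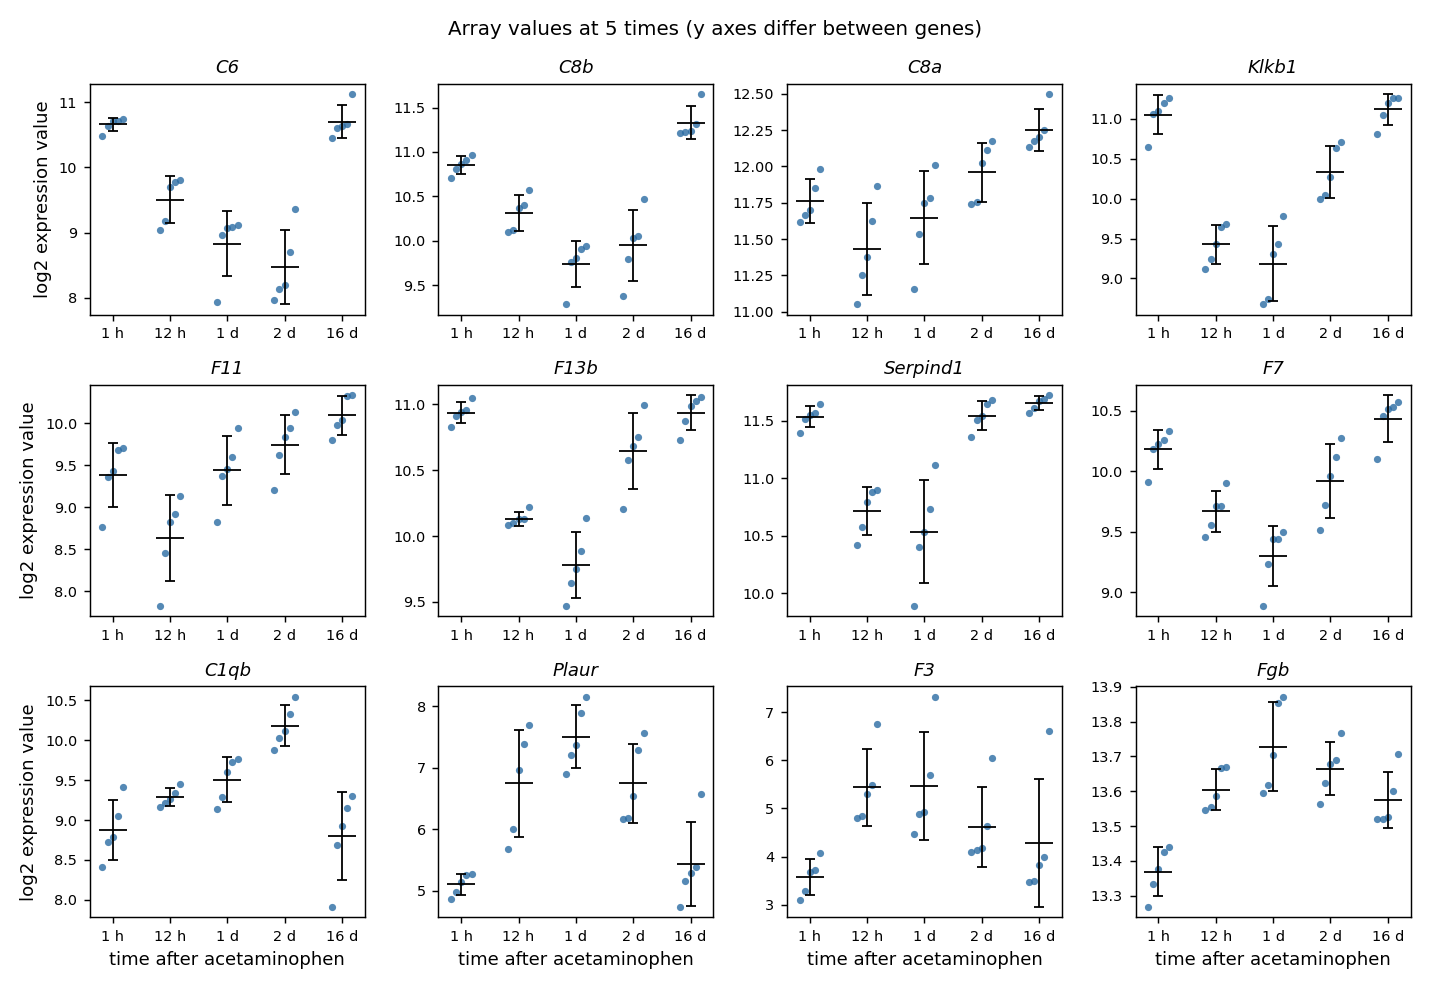
Log2 expression value of 12 genes on every array at 1 h, 12 h, 1 d, 2 d and 16 d after acetaminophen (5 arrays a time); points are arrays, and lines with bars are the mean ± SD. C6 stays low at 2 d while Serpind1 and F13b are back near 1 h. C8a and F11 do not follow C8b and Klkb1 at 1 d. The high point at 16 d for Plaur (6.57) and F3 (6.61) is replicate 5. After ribosomal centring the differences of Fgb from 1 h are small and negative at 1 d and 2 d.

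Of the factors on the path to thrombin, F7, F10, F5 and F2 were all lower at 1 d than at 1 h. F7, which binds tissue factor, read 9.23, 9.44, 8.89, 9.44 and 9.50 at 1 d, against 10.26, 10.33, 9.91, 10.19 and 10.22 at 1 h, without overlap. Its differences were -0.51 ± 0.14 at 12 h and -0.88 ± 0.14 at 1 d, and 2 d was above 1 d by 0.62 ± 0.14 (adjusted p = 0.0048). F7 was then above control by 0.59 ± 0.14 at 4 d and 0.58 ± 0.14 at 6 d (adjusted p = 0.00194 and 0.00394). At 16 d its difference from control was 0.44 ± 0.14 (adjusted p = 0.0478), a call lost without any one of 7 arrays (16 d replicates 1, 2, 3 and 5, control replicates 1 to 3) and in a fit to the compared groups alone, with an adjusted p of up to 0.218. F10, the protease that cuts prothrombin, differed by -0.49 ± 0.10 at 12 h and -0.63 ± 0.10 at 1 d on its bright probe set. The 2 dimmer F10 probe sets, with 1 h means of 7.58 and 7.85, gave -0.23 ± 0.22 and -0.32 ± 0.20 at 1 d and were not called, and the comparison with control rests on the brighter of these 2. F5, factor V, the cofactor of factor X, differed by -0.46 ± 0.115 at 12 h, -0.65 ± 0.115 at 1 d and -0.41 ± 0.115 at 2 d. F2, prothrombin, had a narrow range, from 12.63 to 12.76 at 1 d, against 12.92 to 13.11 at 1 h (-0.29 ± 0.07, adjusted p = 0.0036), and its calls were lost under quantile normalization (adjusted p = 0.131 at 1 d).

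F13b, the carrier subunit of factor XIII, which crosslinks fibrin, fell and returned. It read 11.05, 10.96, 10.82, 10.94 and 10.91 at 1 h, 10.13, 10.22, 10.13, 10.08 and 10.10 at 12 h, 9.64, 10.14, 9.75, 9.47 and 9.89 at 1 d, 10.76, 10.58, 10.99, 10.69 and 10.20 at 2 d, and 11.06, 10.99, 11.02, 10.73 and 10.87 at 16 d. The 12 h and 1 d arrays lay below every 1 h array. F13b differed by -0.81 ± 0.12 at 12 h and -1.16 ± 0.12 at 1 d (adjusted p = 4.69e-05 and 2.24e-07), and 2 d was above 1 d by 0.86 ± 0.12 (3.44e-05). Against control the 1 d difference was -0.99 ± 0.11 (8.66e-10).

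Tissue factor, the cellular trigger of coagulation, moved the other way. It read low in these livers. F3 had 3.11, 4.07, 3.29, 3.69 and 3.72 at 1 h, 4.84, 5.48, 5.30, 6.75 and 4.80 at 12 h, 7.31, 4.47, 4.93, 5.70 and 4.89 at 1 d and 4.09, 4.14, 4.18, 4.64 and 6.06 at 2 d. All arrays at 12 h and 1 d were above all 1 h arrays, and 1 array at 12 h, at 1 d and at 2 d stood well above its fellows. The 1 h mean of 3.58 lay below 3.84, the bound of the lowest 25% of gene probe set means, and the deposited values carry no detection calls, so the 1 h level is not shown to be above background and a difference from it may be understated. F3 was higher by 1.86 ± 0.55 at 12 h and 1.89 ± 0.55 at 1 d (adjusted p = 0.0191 and 0.014), and the call at 12 h was lost without 12 h replicate 4 (0.0634) and the call at 1 d without 1 d replicate 1 (0.0537). Against control the differences were 1.42 ± 0.44 and 1.45 ± 0.44 at these times, lost without the same arrays. At 16 d, 4 arrays read between 3.47 and 4.00 and replicate 5 read 6.61.

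Fibrinogen, the substrate of thrombin, is made of an alpha, a beta and a gamma chain from the adjacent genes Fgg, Fga and Fgb on chromosome 3. Fgb read 13.62, 13.70, 13.60, 13.85 and 13.87 at 1 d, against 13.42, 13.38, 13.44, 13.27 and 13.33 at 1 h, and no array overlapped. On the deposited scale Fga was higher by 0.43 ± 0.07, Fgb by 0.36 ± 0.07 and Fgg by 0.29 ± 0.075 at 1 d against 1 h (adjusted p = 0.000114, 0.000912 and 0.00617), while after ribosomal centring Fgb differed by -0.039 and Fgg by -0.11 and Fga was no longer called. At 2 d the differences were 0.30 ± 0.07 for Fga, 0.30 ± 0.07 for Fgb and 0.26 ± 0.075 for Fgg, and after ribosomal centring -0.045, -0.047 and -0.086. Fgg was above control at 1 d, 2 d, 6 d, 8 d and 16 d by 0.22 to 0.27, a difference that became 0.006 at 1 d and -0.004 at 2 d after ribosomal centring, and read 13.62, 13.75, 13.63, 13.67 and 13.60 at 6 d, against 13.36, 13.45, 13.30, 13.35 and 13.51 in control. The 8 d call was lost without control replicate 3, under quantile normalization and after ribosomal centring (adjusted p = 0.0535, 0.0894 and 0.0645). The 16 d call was lost without 16 d replicate 5, under quantile normalization and without the 3 narrow arrays (0.078, 0.0658 and 0.0628). A fit to the compared groups alone ended all 5 calls of Fgg against control (adjusted p between 0.0893 and 0.347).

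On the deposited scale all 3 chains were called higher at 1 d and 2 d, and at 12 h Fga and Fgb were and Fgg was not (0.16 ± 0.075, adjusted p = 0.153). In the permutation test of neighbours the rise of Fga from 1 h was larger than that of Fgg at 12 h and 1 d. Values of Fgg lie near the top of the range, so its rise may be understated. The 250 bases before the annotated start sites of the 3 genes are shown here, taken from RefSeq on GRCm38.p6 and written 5′ to 3′ on the gene's strand. The deposited files name no build. Fga lies at chr3:83025903-83026152 on the plus strand, Fgb at chr3:83049864-83050113 on the minus strand and Fgg at chr3:83007474-83007723 on the plus strand. Capitals mark matches on either strand to TTCNNNGAA (the STAT motif), TTNNGCAAT (C/EBP), TGANTCA (AP-1), GGGNNTTCC (NF-kB) or GCGGGGGCG (Egr).
Fga: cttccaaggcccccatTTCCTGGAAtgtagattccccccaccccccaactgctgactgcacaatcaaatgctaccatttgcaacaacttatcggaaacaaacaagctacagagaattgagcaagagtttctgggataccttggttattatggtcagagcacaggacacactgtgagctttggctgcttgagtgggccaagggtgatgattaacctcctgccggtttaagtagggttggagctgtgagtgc
Fgb: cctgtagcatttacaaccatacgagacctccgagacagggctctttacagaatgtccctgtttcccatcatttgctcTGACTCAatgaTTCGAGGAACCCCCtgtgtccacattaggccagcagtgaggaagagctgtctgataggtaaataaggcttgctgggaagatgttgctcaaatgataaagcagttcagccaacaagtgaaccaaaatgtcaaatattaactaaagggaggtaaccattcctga
Fgg: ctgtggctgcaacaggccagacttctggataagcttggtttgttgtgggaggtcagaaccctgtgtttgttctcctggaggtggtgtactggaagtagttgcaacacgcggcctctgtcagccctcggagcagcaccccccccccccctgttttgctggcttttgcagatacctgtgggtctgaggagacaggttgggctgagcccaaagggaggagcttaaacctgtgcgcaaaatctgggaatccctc

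STAT3 carries the interleukin-6 signal to acute phase genes, of which fibrinogen is a classical member. Counted from the start site, the STAT letters began at -234 in Fga and at -162 in Fgb, where they overlapped an NF-kB match that began at -157. Fgb also held AP-1 letters at -173, and the Fgg window held none of the 5 motifs. Windows existed for 28 of the 37 members, 1 of them with 2 windows. The STAT letters were in 5 of these 29 windows and in 7.02% of the 32851 windows of the table, and the AP-1 letters were in 5 of 29 and in 6.75% of all. The C/EBP, NF-kB and Egr letters were each in 1 of the 29 windows, and in 1.93%, 4.98% and 2.57% of all. A match is a description of the letters and shows no binding.

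The anticoagulants fell, and heparin cofactor II returned most completely. Serpind1, which encodes this thrombin inhibitor, read 11.64, 11.52, 11.39, 11.57 and 11.55 at 1 h, 10.88, 10.42, 10.79, 10.58 and 10.90 at 12 h, 9.89, 11.11, 10.73, 10.40 and 10.53 at 1 d and 11.68, 11.51, 11.65, 11.54 and 11.36 at 2 d. No array at 12 h or 1 d reached the 1 h or 2 d arrays. The differences were -0.82 ± 0.145 at 12 h, -1.001 ± 0.145 at 1 d and 0.01 ± 0.145 at 2 d, and 2 d was above 1 d by 1.01 ± 0.145 (adjusted p = 4.58e-05, limma). Serpind1 was above control at 4 d and 6 d by 0.38 ± 0.14 and 0.44 ± 0.14 (adjusted p = 0.0458 and 0.0309), calls that leaving out any of 8 arrays at 4 d (all but 4 d replicate 1 and control replicate 1) and of 6 at 6 d (6 d replicates 1 to 4, control replicates 2 and 4) ended, with an adjusted p of up to 0.123 and 0.0914. Serpinc1, antithrombin, read 12.71, 12.79, 12.72, 12.69 and 12.84 at 1 d, against 13.13, 13.19, 13.01, 13.14 and 13.12 at 1 h, a difference of -0.37 ± 0.07 (0.0004) without overlap. Proc, protein C, which switches off factors V and VIII, differed by -0.43 ± 0.08 at 12 h, -0.39 ± 0.08 at 1 d and -0.27 ± 0.08 at 2 d, the last not called without 1 h replicate 2 or 2 d replicate 5.

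In the plasminogen system, Plg, made by hepatocytes, fell slightly, and Plaur, the receptor that holds urokinase on the cell surface, rose. Plg differed from 1 h by -0.41 ± 0.09 at 12 h and -0.38 ± 0.09 at 1 d (adjusted p = 0.00184 and 0.0032). Its comparison with control gave no call at any time, with a control group that held the reading of 11.51 on replicate 2. Plau, urokinase itself, read between 4.36 and 5.11 on all 49 arrays and was not called, as represented by the brighter of its 2 probe sets. Plaur read 4.87, 4.98, 5.27, 5.25 and 5.13 at 1 h, 5.68, 7.38, 7.70, 6.97 and 6.00 at 12 h, 8.15, 7.37, 7.21, 7.90 and 6.89 at 1 d, 6.16, 7.29, 6.19, 6.54 and 7.55 at 2 d, and 4.73, 5.29, 5.16, 5.38 and 6.57 at 16 d. Every array from 12 h to 2 d was above every 1 h array, and at 16 d replicate 5 stood above the other 4. The differences were 1.64 ± 0.36 at 12 h, 2.40 ± 0.36 at 1 d and 1.64 ± 0.36 at 2 d (adjusted p = 0.0023, 2.95e-05 and 0.00151, limma). Plaur is also expressed by neutrophils, monocytes and macrophages. Of 10 neutrophil markers 8 were measured, and against 1 h 2 were higher at 12 h, 3 at 1 d and 1 at 2 d, with none lower. Of all genes 8.29%, 11.6% and 14.8% were called higher at those times. Camp, Cxcr2, Ltf, Mmp8 and Ngp were not called at any of them. S100a8 and S100a9, the calprotectin subunits, were higher by 3.86 ± 0.73 and 3.47 ± 0.67 at 12 h and by 4.17 ± 0.73 and 3.70 ± 0.67 at 1 d. The summed linear level of the 8 ranged from 221 to 349 over the 1 h arrays, 432 to 5720 at 12 h, 704 to 5540 at 1 d and 402 to 920 at 2 d. S100a8 and S100a9 weighed most in these sums, with means of 9.67 and 9.60 at 1 d, where the next highest was Csf3r with 6.39. These sums were highest at 12 h and 1 d, those of the monocyte and macrophage markers at 2 d, and the part of these cells in the rises of Plaur and F3 was not tested.

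Plaur and F3 are the 2 members outside C1q that rose by over 1 on the log2 scale, and their windows are shown as for fibrinogen. Plaur lies at chr7:24462233-24462482 on the plus strand and F3 at chr3:121723287-121723536 on the plus strand. Capitals mark AP-1 letters at -69 and Egr letters at -109 in Plaur, and AP-1 letters at -146 and -135 in F3.
Plaur: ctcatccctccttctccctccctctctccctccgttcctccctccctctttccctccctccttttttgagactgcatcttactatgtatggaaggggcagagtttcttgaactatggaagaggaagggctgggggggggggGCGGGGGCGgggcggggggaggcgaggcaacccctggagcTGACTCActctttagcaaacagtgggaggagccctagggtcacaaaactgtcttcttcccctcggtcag
F3: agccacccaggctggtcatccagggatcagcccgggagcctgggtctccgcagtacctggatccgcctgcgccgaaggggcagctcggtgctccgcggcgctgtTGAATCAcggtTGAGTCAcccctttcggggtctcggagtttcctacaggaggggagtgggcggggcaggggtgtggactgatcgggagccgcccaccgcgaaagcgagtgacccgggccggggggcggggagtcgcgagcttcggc

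**Figure D4:**
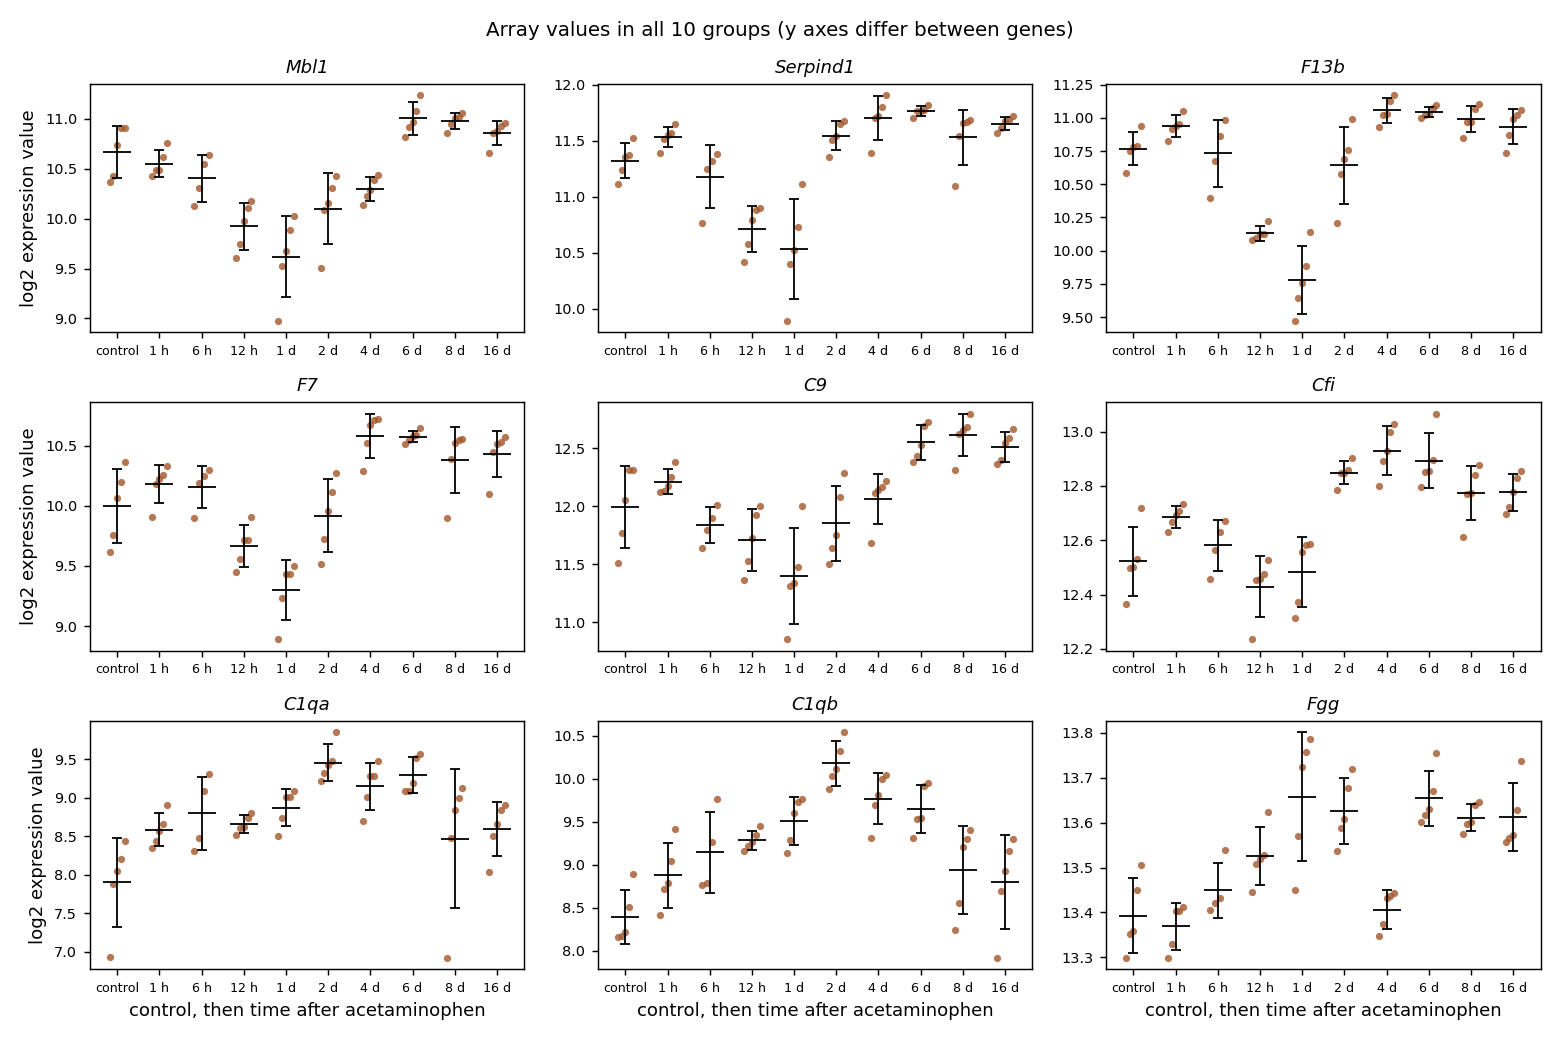
Log2 expression value of 9 genes on every array in all 10 groups, control first and then 1 h to 16 d after acetaminophen; points are arrays and lines with bars are the mean ± SD (5 arrays a group, 4 at 6 h). Mbl1, Serpind1, F13b and F7 dip at 12 h and 1 d, C9 and Cfi are called above control from 6 d and from 2 d on, and C1qa and C1qb peak at 2 d; the low points of C1qa are control replicate 2 (6.94) and 8 d replicate 2 (6.92), and the small rise of Fgg at 2 d is absent after ribosomal centring.

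Other genes of the 2 systems were called in both directions, and some of their counts lay near those over all genes, of which 8.29%, 11.6% and 14.8% were higher and 10.3%, 11.7% and 13.3% lower than at 1 h at 12 h, 1 d and 2 d. Of 34 further complement genes, 25 were measured, and against 1 h 2 were higher and 7 lower at 12 h, 4 and 7 at 1 d, and 10 and 4 at 2 d. The 2 higher at 12 h (8% of the 25), the 4 higher at 1 d (16%) and the 4 lower at 2 d (16%) are near the share of all genes. C2, which with C4 forms the classical convertase, differed by -1.16 ± 0.12 at 1 d, and C1ra and C1s1, the proteases that ride on C1q, by -1.03 ± 0.11 and -0.96 ± 0.10. At 2 d the higher genes included Itgb2, the beta chain of complement receptors 3 and 4 on leukocytes (2.22 ± 0.265), and C3ar1 and C5ar1, receptors of the fragments C3a and C5a (1.35 ± 0.22 and 1.00 ± 0.23). Of 30 further coagulation and fibrinolysis genes, 25 were measured, with 5 higher and 5 lower at 12 h, 9 and 4 at 1 d, and 8 and none lower at 2 d. The higher shares were 20%, 36% and 32% and the lower ones 20%, 16% and 0%. F13a1, the catalytic subunit of factor XIII, which macrophages and megakaryocytes make, was higher by 3.25 ± 0.46 at 1 d, when its partner F13b was lower. Procr, the endothelial receptor of protein C, was higher by 3.36 ± 0.39 at 12 h and 3.90 ± 0.39 at 1 d, Plat, tissue plasminogen activator, by 2.92 ± 0.24 at 2 d, and Fgl2, a membrane prothrombinase, by 1.70 ± 0.36 at 2 d.

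Acute phase and hepatocyte genes are set beside the members because most are made in the same cells. Of 20 acute phase genes, 6 were higher and 2 lower at 12 h, 10 and 2 at 1 d, and 10 and none lower at 2 d against 1 h (30%, 50% and 50% higher, 10%, 10% and 0% lower), with Lcn2, an iron-scavenging lipocalin, higher by 3.86 ± 0.54 and Apcs, serum amyloid P, by 1.94 ± 0.17 at 2 d. Of 13 hepatocyte markers 11 were measured, and none was higher and 5 lower at 12 h, none and 4 at 1 d, and 1 and 3 at 2 d (45.5%, 36.4% and 27.3% lower). Their summed linear level ranged from 123000 to 126000 over the 1 h arrays, 109000 to 118000 at 12 h, 111000 to 120000 at 1 d and 117000 to 125000 at 2 d. The bright markers lie near the top of the range. The part of hepatocyte number in the falls of the liver-made factors was not tested.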

How the data were processed

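Whole liver RNA was measured on Affymetrix mouse genome arrays after TRIzol isolation and oligo(dT) labelling, per the labels' protocols. The authors deposited log2 expression values, 1 per probe set and array, made with oligo 1.52.0 and RMA per the submitters' processing notes. Build and annotation are not given in the sources used here. Values were used as deposited, and their precision is limited by how few arrays a group has. For 5 groups (1 and 12 h, 1, 2 and 16 d; 25 arrays) 45101 probe sets had values, and on all 49 arrays 8137 had.

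A gene was represented by its single-symbol probe set with the highest mean. The test was limma 3.58.1 (R 4.3.3; 1 mean per group, shared spread) in 2 fits, over 25 arrays against 1 h and over 49 arrays against control, with Benjamini-Hochberg adjustment over all genes and a threshold of 0.05. Replicate numbers did not enter the main fits. No array duplicated another (highest correlation 0.9957). The scripts were tested on simulated data with the means and spreads of the real genes. Of 100 genes changed by 0.5 on the log2 scale at 2 d, 38% were recovered against 1 h and 46% against control. Of 100 changed by 1, 89% and 96% were recovered. A difference near 0.5 that was not called is therefore not shown to be absent. The members, the lists of other genes and the tests were chosen with earlier results of these data known. Array by array values follow the largest called differences in each role, and up to 4 genes are named per list. Promoter windows are RefSeq's on GRCm38.p6.

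Alternatives were the mean of all probe sets, no probe sets marked for cross-hybridisation, no dim genes (lowest 25%), trend with robust estimation, array weights, quantile normalization, ribosomal centring (46 and 30 genes), a replicate block, no narrow arrays (SD below 2.3), only the compared groups, and each array left out.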

Additional observations from a re-analysis of the deposited data

Results flagged for a closer look

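In 300 sets of array values, a single array stood apart from the rest of its group in 31 (10.3%), where chance gives about 1 in 20. Of the 31, 9 lay on the narrow arrays. On 1 h replicate 3 these were F10 (7.28), F12 (11.42) and Masp2 (9.91), all low, and on control replicate 3 F10 (7.38), also low. On 16 d replicate 4 they were F10 (7.74), F12 (11.17), F2 (12.95), F7 (10.1) and Masp1 (9.3), all low. F10 is meant here on the probe set used for control.

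On 8 d replicate 2, Plg (11.37), Cfb (10.71), F2 (12.72), F7 (9.9), Serpinc1 (12.98) and Serpind1 (11.1) were low and Masp1 (10.76) was high, and Plg was low on control replicate 2 (11.51). At 1 d, C6 (7.94) and C8b (9.29) were low on replicate 3 and Hc (12.12) was high on replicate 2. At 12 h, Cfi (12.23), Fga (13.01) and Serping1 (12.08) were low on replicate 2 and Cfb (11.42) was high on replicate 3. At 6 h F10 was low on replicate 1 (7.85).

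At 4 d, C9 was low on replicate 1 (11.68), F10 on replicate 2 (8.2) and F12 on replicate 3 (11.2). At 16 d, C8b was high on replicate 2 (11.65) and F3 on replicate 5 (6.61), and at 2 d F3 was high on replicate 5 (6.06).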

How the results depend on the processing

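Over the alternatives other than leaving out arrays, 4008 of the comparisons of single genes stayed on their side of the threshold without reversing. A comparison counts as reversed where a called difference changed sign, whatever its new size, and the sign of uncalled ones was not followed. Of the rest, 111 lost a call, 100 gained one and 6 reversed. The 6 are fibrinogen under ribosomal centring: Fga at 2 d against 1 h (-0.045), Fgb at 1 d and 2 d (-0.039 and -0.047), Fgg at 1 d and 2 d (-0.11 and -0.086) and Fgg at 2 d against control (-0.004). With each array left out in turn, 4538 were kept, 188 lost a call, 35 gained one and none reversed. Counts of called genes moved by over 1.5 times as follows. Fitting only the compared groups gave 11 of 24 at 1 d, 9 at 12 h, 6 at 2 d, 1 at 6 h, 1 at 8 d and 0 at 16 d against control, in place of 17, 14, 11, 2, 3 and 4, and 2 of 35 at 16 d against 1 h in place of 0. That fit has fewer arrays behind its spread. At 16 d against 1 h, array weights gave 8, trend with robust estimation 3 and quantile normalization 2. Against control, array weights gave 11 at 4 d in place of 7, 5 at 8 d and 1 at 6 h, quantile normalization 0 at 6 h, ribosomal centring 1 at 8 d, and leaving out the narrow arrays 0 at 6 h and 1 at 16 d. The cause of these moves was not tested. In no comparison did every same-numbered pair of arrays correlate above 0.1 in its deviations from the group means (range -0.57 to 0.816), so the numbers were not taken to pair the arrays. All pairs correlated above 0 at 1 h and at 6 h against control (lowest 0.07 and 0.009). With a replicate block the count at 6 h was 0 in place of 2. With 1 array left out, the count of called genes ranged from 24 to 27 at 1 d, 20 to 26 at 12 h and 16 to 21 at 2 d against 1 h, 8 to 11 at 2 d against 1 d, and 32 to 33 over any difference. Against control it ranged from 0 to 2 at 6 h, 10 to 15 at 12 h, 16 to 18 at 1 d, 9 to 12 at 2 d, 5 to 8 at 4 d and at 6 d, 2 to 6 at 8 d and 2 to 5 at 16 d. Of the neighbouring pairs, C1qc minus C1qa at 2 d lost its call without the narrow arrays (adjusted p = 0.0555). Levels near the top of the range may limit what Fgb and Fgg can show.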
